A study of Mus musculus with 9 samples.

Results

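Regulators of G-protein signalling (RGS proteins) were followed in immortalized mouse macrophages (IMM cells) over the first hour of lipopolysaccharide (LPS), a component of the outer membrane of Gram-negative bacteria. The 8 genes are Rgs1, Rgs2, Rgs3, Rgs10, Rgs14, Rgs16, Rgs18 and Rgs19, out of 55450 genes in the count table. They were taken by symbol, and the group was chosen by measured values, namely the lower counts of Rgs1 and Rgs2 at 60 than at 30 min. The difference between 60 and 30 min is therefore given for the members as a description, with no test. Total RNA was sequenced from 3 libraries at each of 0 min (the control, no LPS), 30 min and 60 min. LPS was given at 100 ng/mL. All libraries came from the same line, IMM, with the genotype given as WT. Cells were treated after 5 passages from a thaw, in serum-containing medium. An immortalized line is a model of a macrophage growing alone in a dish, and the sources used here do not say how it was immortalized. No library at 30 or 60 min without LPS was analysed here, so the effects of LPS, handling and time cannot be told apart.

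RGS proteins act on the switch that relays signals from G protein-coupled receptors. An activated receptor makes a G alpha subunit exchange GDP for GTP, and both the G alpha subunit and the G beta-gamma pair then act on effectors such as adenylyl cyclases, phospholipases C and ion channels. The RGS domain speeds up GTP hydrolysis by G alpha, which ends the signal, so that the amounts of RGS proteins help set how strongly and how long a cell answers a chemokine, prostaglandin or nucleotide. In leukocytes they are best known for limiting chemotaxis through receptors coupled to G alpha i.

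Libraries held 26867400 to 30402306 counts, and 10 counts were worth 0.324 to 0.367 CPM (counts relative to the library total, here scaled by edgeR's TMM factors). Of the 8 genes, 7 passed the filter on low counts and were tested among 14246 genes. Rgs16, an RGS gene that activated lymphocytes are known to induce, had 0 counts in all 9 libraries. At 3 counts as the floor, this allows a level of up to 0.0973 to 0.11 CPM per library, counting error only. The 8 macrophage markers checked, among them Csf1r, Cd68 and Adgre1, were summed on plain totals. The sum was 1940 to 2020 CPM at 0 min, 2000 to 2040 CPM at 30 min and 1980 to 2080 CPM at 60 min. In TMM-scaled CPM, Csf1r (644 against 566) and Spi1 (172 against 153) were higher at 60 than at 0 min without overlap. Fcgr1 was lower (89.7 against 101), also without overlap, and the other macrophage markers overlapped between these times. All 5 mast cell markers had 0 counts, as had Cd3e and Cd8a of the T cell list, and Ly6g and S100a9 of the neutrophil list. The 6 neutrophil markers, mostly Csf3r, summed to 5.86 to 7.07, 5.72 to 6.17 and 5.58 to 6.45 CPM at 0, 30 and 60 min. The summed level was 16.8 to 17.9 CPM at 0 min, 16.2 to 18.4 CPM at 30 min and 13.5 to 15.2 CPM at 60 min for 6 dendritic cell markers, and 9.86 to 14.3, 13.8 to 15.9 and 14 to 14.9 CPM at 0, 30 and 60 min for 5 endothelial markers. Zbtb46 and Batf3 made up most of the dendritic cell sum, and Vwf most of the endothelial sum. The 6 T cell markers, mostly Lck, summed to 2.83 to 3.56, 3.54 to 3.9 and 2.77 to 2.99 CPM at 0, 30 and 60 min. The dendritic cell sum at 60 min lay below that at 30 and at 0 min without overlap, and Zbtb46 of that list was lower at 60 min (6.43 against 8 CPM at 0 min, log2 change -0.31, edgeR adjusted p = 0.017). The T cell sum at 60 min lay below that at 30 min without overlap, and the part of these in the results below was not tested. In bulk RNA, fewer cells that express a gene and less of its RNA per cell cannot be told apart.

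The sequences shown first are those around the 2 genes that moved most. Rgs1 and Rgs2 lie close together on the minus strand of chromosome 1 (GRCm38, GENCODE M21), Rgs1 (ENSMUSG00000026358.13) at chr1:144242296-144249242 and Rgs2 (ENSMUSG00000026360.9) at chr1:143999338-144004161. Copies of the pentamer ATTTA in the 3′ untranslated region (UTR) of an mRNA are the core of AU-rich elements, which are known from some short-lived immune transcripts. For each gene the annotated coding transcript with the longest 3′ UTR was used. That of Rgs1 has a 3′ UTR of 3006 bases with 10 copies of ATTTA, a number that 6.84% of 11117 tested genes reach. Its density was 3.33 per kb, which 16.2% of genes reach. Rgs1 also has 1 copy of the longer form TTATTTATT, found in 8.21% of genes. The 3′ UTR of Rgs2 has 2342 bases and 5 copies (2.13 per kb), a number that 22.7% of genes reach and a density that 32.6% reach. Over those genes the median was 2 copies and 1.32 per kb. A stretch of 30 bases is shown for each as RNA-sense DNA, 5′ to 3′, with ATTTA in capitals, for Rgs1 with 2 copies and for Rgs2 with 1 of its 5, the first where stretches tied, at chr1:144244758-144244787 for Rgs1 and at chr1:144001352-144001381 for Rgs2, both on the minus strand. These are matches of letters, and no binding or stability was measured.
Rgs1: gaggaagacATTTAtatATTTAacctaact
Rgs2: atgttgttggagcATTTAaaatcaataggt

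Among the other members the number of copies varied. Rgs18 has 5 copies in 1129 bases (4.43 per kb, a density that 8.32% of genes reach). Rgs16, with no counts, has 4 copies in 1613 bases and 2 copies of the longer form TTATTTATT, more than Rgs1. Rgs3 has 1 in 2630 bases, Rgs19 has 1 in 849 bases, and Rgs10 (275 bases) and Rgs14 (552 bases) have none.

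Promoter windows from RefSeq (GRCm38.p6), from 250 bases before to 50 after a start, were matched for 5 of the 8 genes, namely Rgs2, Rgs3, Rgs10, Rgs16 and Rgs19. The window of Rgs2, at chr1:144004100-144004399 on the minus strand, is shown because Rgs2 changed at both times. That of Rgs10, at chr7:128418123-128418422 on the minus strand, is shown as a member whose level changed little. Capitals mark TGACG, the core of the cAMP response element (CRE), on either strand, so that it also reads as CGTCA.
Rgs2: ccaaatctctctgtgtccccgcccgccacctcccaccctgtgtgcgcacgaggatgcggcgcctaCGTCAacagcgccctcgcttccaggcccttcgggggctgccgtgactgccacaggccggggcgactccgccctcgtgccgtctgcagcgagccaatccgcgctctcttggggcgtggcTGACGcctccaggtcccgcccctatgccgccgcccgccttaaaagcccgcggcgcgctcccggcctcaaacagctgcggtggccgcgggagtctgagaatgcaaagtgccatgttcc
Rgs10: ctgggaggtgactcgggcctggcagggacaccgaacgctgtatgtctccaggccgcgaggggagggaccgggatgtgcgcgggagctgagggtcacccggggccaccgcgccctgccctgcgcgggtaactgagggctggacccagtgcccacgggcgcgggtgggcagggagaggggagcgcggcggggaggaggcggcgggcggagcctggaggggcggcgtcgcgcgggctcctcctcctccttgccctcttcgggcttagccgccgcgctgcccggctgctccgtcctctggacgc
The Rgs2 window holds 2 such cores, against none in the windows of the other matched members, and 20.8% of 32851 promoter windows hold at least 1. Neither window holds the full element TGACGTCA, whose 2 strands each contain the core and which 1.79% of windows hold, nor the AP-1 motif TGANTCA, held by 7.81%. No match to an NF-kB motif (in 8.46% of windows) or a CArG box (in 1.63%) was found in the windows of the 5 genes. The Rgs2 window also holds 4 GC boxes GGGCGG and 1 CCAAT box, motifs in 35.7% and 37.4% of windows, and no TATAAA, which 13.6% hold. A match is not a bound site, and no match says only that these letters are not in the window.

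At 30 min of LPS 2 of the 7 tested RGS genes were higher than at 0 min and none was lower (1, Rgs19, at an unadjusted p under 0.05), while of all tested genes 8.18% were called, 4.84% higher and 3.35% lower. Both, Rgs1 and Rgs2, belong to the small RGS proteins that are little more than the RGS domain. The 30 min libraries also entered the contrast by which the group was chosen, so this comparison is not independent of that choice. Calls are at an adjusted p under 0.05 in edgeR's quasi-likelihood test with Benjamini-Hochberg adjustment over all tested genes, two-sided. DESeq2 and limma-voom, run as alternatives, called as many members in each direction at both times.

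Rgs1 acts on G alpha i and G alpha q and is known to blunt chemokine responses of B cells and other leukocytes. Its level was 44.06, 46.79 and 45.99 CPM at 0 min, 117.7, 142.4 and 140.7 CPM at 30 min, and 44.38, 52.37 and 43.25 CPM at 60 min. Every 30 min library lay above every library of the other times, and the 0 and 60 min libraries overlapped. Against 0 min, Rgs1 at 30 min was 2.93-fold higher (log2 change 1.55 ± 0.0762 SE, n = 3 each, edgeR adjusted p = 4.33e-09). At 60 min its log2 change from 0 min was 0.03, with a 95% interval from -0.138 to 0.2037 and an edgeR adjusted p of 0.812, and its sign turned to -0.03615 when totals were the only scaling and to -0.05792 without 60 min replicate 2. Set side by side, the 60 min mean was 46.7 ± 4.97 CPM and the 30 min mean 134 ± 13.8 CPM (SD, n = 3 each), a log2 difference of -1.52 or 2.86-fold lower.

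Rgs2, which is selective for G alpha q and can also inhibit adenylyl cyclase, took another course. It had 37.02, 46.43 and 35.25 CPM at 0 min, 58.58, 66.29 and 67.57 CPM at 30 min, and 23.8, 29.76 and 26.66 CPM at 60 min. The 3 times did not overlap, with 30 min highest, 0 min between and 60 min lowest. It was 1.62-fold higher at 30 than at 0 min (log2 change 0.70 ± 0.094 SE, edgeR adjusted p = 0.000202), and 1.48-fold lower at 60 than at 0 min (log2 change -0.56 ± 0.0999 SE, edgeR adjusted p = 0.000751). The 60 min mean of 26.7 ± 2.98 CPM was 2.4-fold lower than the 30 min mean of 64.1 ± 4.86 CPM (SD, n = 3 each, log2 difference -1.26). At 60 min Rgs1 overlapped its 0 min libraries, and Rgs2 lay below its own.

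**Figure D1:**
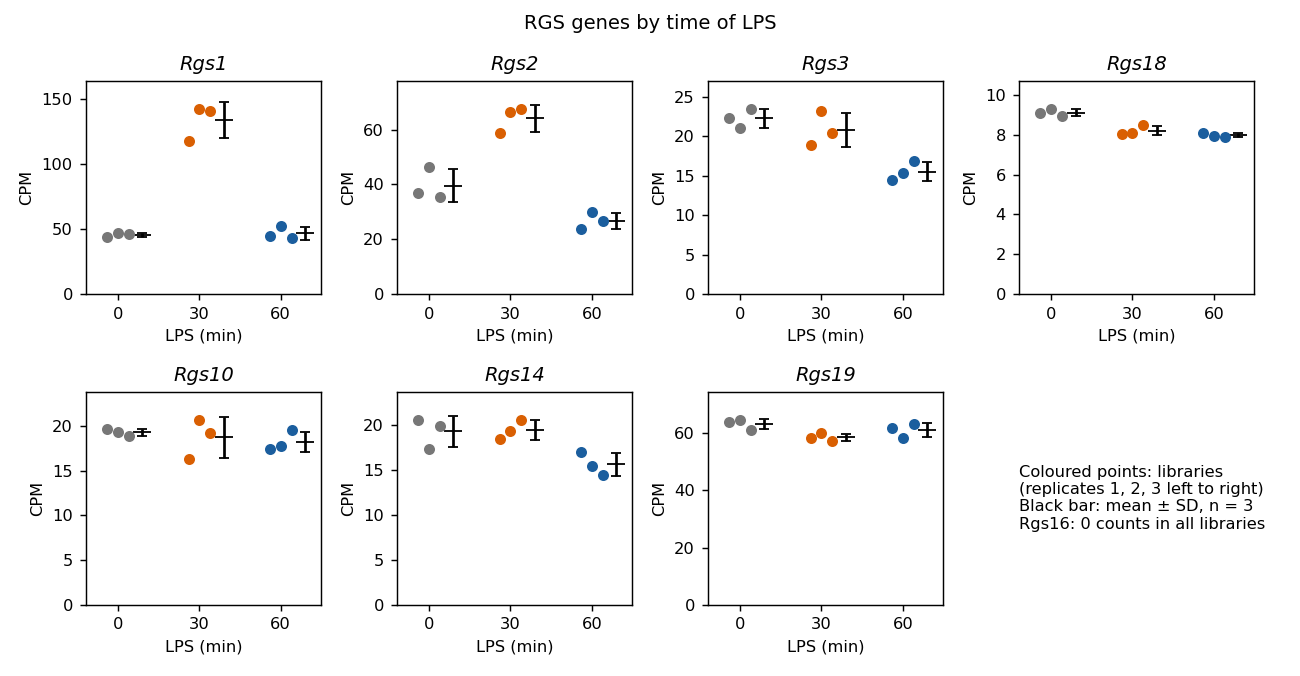
Level of each RGS gene in CPM (vertical axes from 0) at 0, 30 and 60 min of LPS; points are libraries and black bars the mean ± SD of 3 libraries. Rgs1 and Rgs2 are highest at 30 min, Rgs3 and Rgs14 are lowest at 60 min, and Rgs10, Rgs18 and Rgs19 move little.

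The proportion of Rgs2 to Rgs1 also differed between times. The log2 ratio of Rgs2 to Rgs1 counts, which needs no scaling between libraries, was -0.251, -0.0109 and -0.384 at 0 min, -1.01, -1.1 and -1.06 at 30 min, and -0.899, -0.815 and -0.698 at 60 min. Each library at 30 or 60 min lay below each at 0 min, and the 30 min libraries lay below those at 60 min. This ratio was chosen after the values were seen and is a description. Rgs1 and Rgs2 counts were thus nearest to equal before LPS. Summed over the 8 members, the level was 216.6, 225 and 213.6 CPM at 0 min, 296.2, 339.9 and 334.3 CPM at 30 min, and 187, 196.7 and 191.8 CPM at 60 min, with no overlap between times. Rgs1 and Rgs2 carried the higher sum at 30 min: without them it was 135.5, 131.8 and 132.3 CPM at 0 min, 119.9, 131.3 and 126 CPM at 30 min, and 118.9, 114.6 and 121.8 CPM at 60 min. Those 30 and 60 min libraries lay below all 0 min libraries and overlapped each other.

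At 60 min of LPS 3 of the 7 tested genes, Rgs2, Rgs3 and Rgs14, were lower than at 0 min and none was higher (0 at an unadjusted p under 0.05), while 25.0% of all tested genes were called, 11.7% lower and 13.3% higher. The 60 min libraries entered the contrast of the choice as well, so this comparison, that of Rgs2 above all, is not independent of it either. Rgs3, a larger member of the same subfamily as Rgs1 with long forms that carry further domains, had 22.36, 21.07 and 23.48 CPM at 0 min, 18.93, 23.16 and 20.36 CPM at 30 min, and 14.48, 15.29 and 16.83 CPM at 60 min. The 60 min libraries lay below all others, while those of 30 and 0 min overlapped. Its log2 change was -0.52 ± 0.0817 SE at 60 min against 0 min (1.44-fold lower, edgeR adjusted p = 0.000267) and -0.10 at 30 min against 0 min (edgeR adjusted p = 0.527). GENCODE lists 17 transcripts of Rgs3, and gene counts do not say which of them changed.

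Rgs14 carries Ras-binding domains and a GoLoco motif that binds GDP-bound G alpha i, beside its RGS domain. It had 20.64, 17.35 and 19.98 CPM at 0 min, 18.44, 19.35 and 20.65 CPM at 30 min, and 17.04, 15.42 and 14.52 CPM at 60 min. The highest 60 min library lay just under the lowest 0 min library. The log2 change at 60 min against 0 min was -0.30 ± 0.0811 SE (1.23-fold lower, edgeR adjusted p = 0.0133). That call rested on single libraries: it was lost without 0 min replicate 1 (log2 change -0.26, adjusted p = 0.0642), without 0 min replicate 3 (-0.28, adjusted p = 0.051) and without 60 min replicate 3 (-0.26, adjusted p = 0.0506), all from edgeR. At 30 min against 0 min its log2 change was 0.01 (edgeR adjusted p = 0.958), and its sign was negative with totals as the only scaling and without 0 min replicate 2 or 30 min replicate 3.

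Rgs10, Rgs18 and Rgs19 passed the test in neither comparison with 0 min. Rgs10, a short RGS protein abundant in microglia and macrophages, had 19.68, 19.32 and 18.84 CPM at 0 min, 16.28, 20.73 and 19.2 CPM at 30 min, and 17.39, 17.73 and 19.51 CPM at 60 min. Its 95% intervals for the log2 change ran from -0.2164 to 0.1346 at 30 min and from -0.2577 to 0.09323 at 60 min, both against 0 min, and without 30 min replicate 1 the sign at 30 min turned. Rgs19, also known as GAIP, a regulator of G alpha i that is found on membranes, had 63.74, 64.73 and 61.07 CPM at 0 min, 58.2, 59.91 and 57.32 CPM at 30 min, and 61.87, 58.23 and 63.1 CPM at 60 min. Its 30 min libraries lay below all 0 min libraries, by a log2 change of -0.11 (95% interval from -0.1996 to -0.02291, edgeR adjusted p = 0.126). Rgs18, known from platelets and other blood cells, had 9.09, 9.308 and 8.951 CPM at 0 min, 8.034, 8.113 and 8.483 CPM at 30 min, and 8.097, 7.931 and 7.904 CPM at 60 min. Both later times lay below all 0 min libraries, with a log2 change of -0.15 at 30 min (edgeR adjusted p = 0.26) and -0.19 at 60 min (edgeR adjusted p = 0.0745). With totals as the only scaling, Rgs18 and Rgs19 passed at 60 min (log2 changes -0.26 and -0.12, edgeR adjusted p = 0.0172 and 0.0448), which made 5 members lower.

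Separation of the groups alone says little here. At 30 min against 0 min 4 of the 7 genes had no overlap, against 25.9% of all tested genes, and at 60 min against 0 min 4 of 7, against 38.3%. The median log2 change over the 7 genes was -0.0409 at 30 min and -0.192 at 60 min, beside 0.00623 and 0.000946 over all tested genes. Between 60 and 30 min, where 33.8% of all tested genes did not overlap and 7.65% were called lower, Rgs1, Rgs2, Rgs3 and Rgs14 did not overlap; from this contrast the choice was made, so nothing is read from it. There, Rgs3 stood at a log2 difference of -0.42, Rgs14 at -0.32, and Rgs10, Rgs18 and Rgs19 between -0.04 and 0.06.

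**Figure D2:**
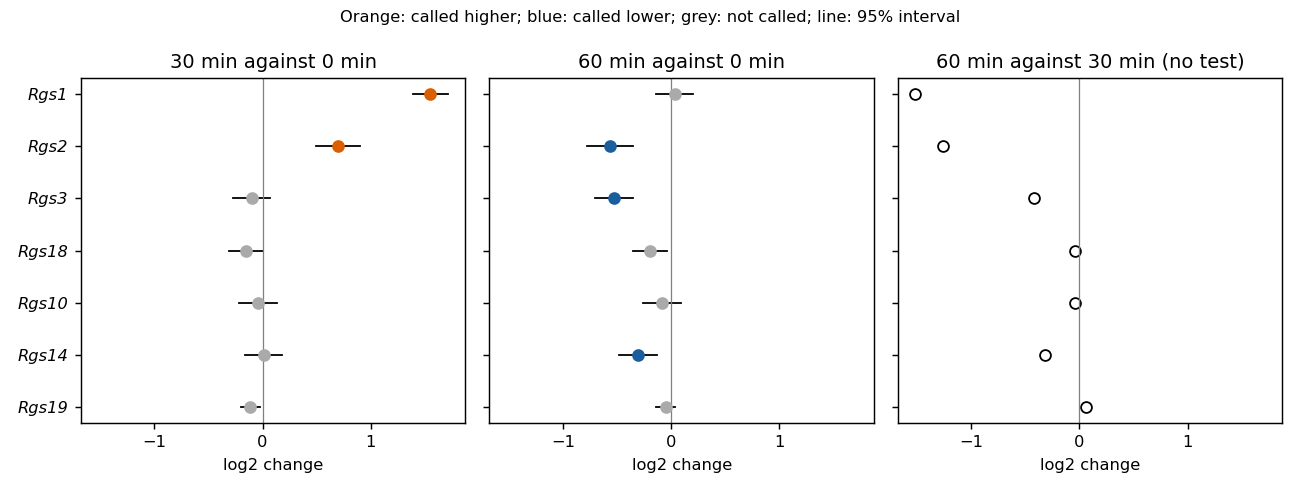
Log2 change of the 7 tested RGS genes for each pair of times (horizontal axes); lines are 95% intervals from edgeR, orange is called higher, blue called lower, grey not called, and open points (60 against 30 min) a description without test. Rgs1 and Rgs2 lie right of 0 at 30 min, and Rgs2, Rgs3 and Rgs14 left of 0 at 60 min.

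Per length, the order of the genes changed with time. At 0 min Rgs19 stood highest at 28.3 ± 0.85 CPM per kb of exon sequence, followed by Rgs10 (11.3 ± 0.246) and Rgs2 (10.9 ± 1.66), which overlapped, then by Rgs1 (6.57 ± 0.202), by Rgs14 (4.56 ± 0.41) and Rgs18 (4.49 ± 0.0885), which overlapped, and by Rgs3 (2.07 ± 0.111; all SD, n = 3). At 30 min Rgs1 at 19.2 ± 1.98 and Rgs2 at 17.7 ± 1.34 CPM per kb overlapped in second place, under Rgs19 at 26.2 ± 0.59 and above Rgs10 at 11 ± 1.32. At 60 min Rgs10 at 10.6 ± 0.665 CPM per kb was again second, above Rgs2 at 7.37 ± 0.822 and Rgs1 at 6.72 ± 0.715, which overlapped. Rgs14 at 4.6 ± 0.261 lay above Rgs18 at 4.04 ± 0.118 CPM per kb at 30 min, while at 60 min Rgs18 at 3.93 ± 0.0515 and Rgs14 at 3.69 ± 0.301 overlapped. Rgs3 stood last of the 7 at both times by this length. The level per kb depends on the length used. With the longest transcript in place of all exons, Rgs10 stood at 21.9 and Rgs2 at 13.1 CPM per kb at 0 min, Rgs14 at 8.12 lay above Rgs1 at 7.81, and Rgs3 at 4.75 above Rgs18 at 4.49. By that length Rgs2 at 21.2 CPM per kb did not pass Rgs10 at 21.3 at 30 min, and Rgs1 at 22.9 did, while Rgs3 at 4.43 lay above Rgs18 at 4.04.

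**Figure D3:**
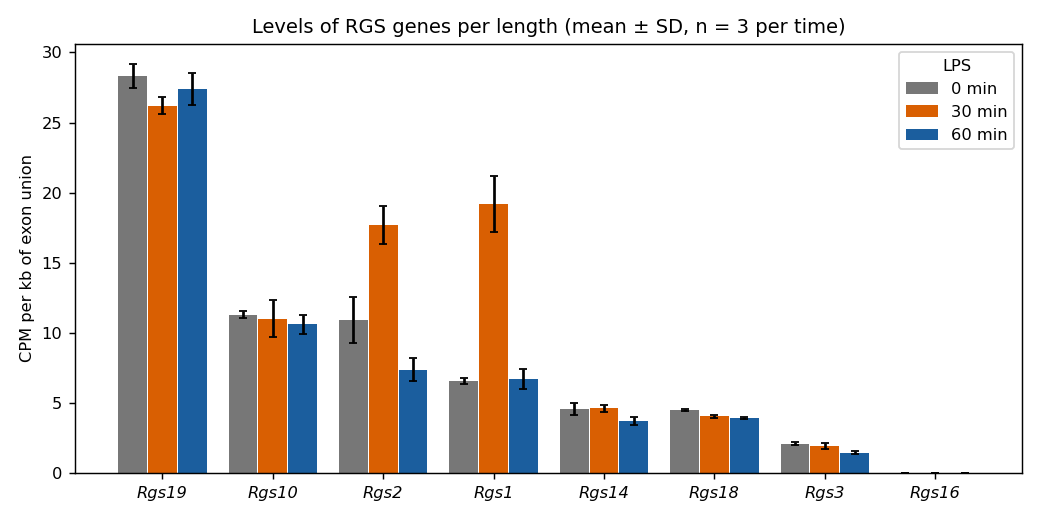
Mean CPM per kb of exon sequence of the 8 RGS genes at 0, 30 and 60 min (bars from 0, error bars SD, n = 3 libraries). Rgs19 is highest at each time, Rgs1 and Rgs2 pass Rgs10 at 30 min, and Rgs16 is at 0.

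The stretch of chromosome 1 from Rgs2 to Rgs18 (143999338 to 144775435) holds 8 annotated genes, 5 of them protein-coding, and all 5 are RGS genes on the minus strand, in the order Rgs2, Rgs13, Rgs1, Rgs21 and Rgs18. Rgs13 and Rgs21 had 0 counts in every library. The neighbours within it therefore ran from not detected (Rgs13, Rgs21) through low with no call (Rgs18) to higher at 30 min (Rgs1, Rgs2). Of 15 further genes with Rgs names, 6 had counts and 3 were tested. Rgs7bp and Rgs9bp among the 15 encode partners that bind RGS proteins and are not RGS proteins themselves. Rgs11 had a mean of 2.75 CPM at 0 min, 2.83 CPM at 30 min and 2.33 CPM at 60 min. Rgs12 and Rgs9bp lay under 1 CPM. None of the 3 passed edgeR's test in any comparison, and 0 had an unadjusted p under 0.05.

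Genes whose level followed Rgs1 or Rgs2 were sought by Pearson's r of log2 CPM over the 9 libraries, among 9382 protein-coding genes with a mean of at least 5 CPM. Nearest to Rgs1 were Agap3 (r = 0.979), Nrros (0.95), Hist1h4f (0.948), Cenpa (0.947) and Kifc3 (0.945), and nearest to Rgs2 were Asph (0.971), Wdfy2 (0.957), Inppl1 (0.956), Klhl21 (0.954) and Rer1 (0.954). Hist1h4f has near-identical copies, so its counts are uncertain. Their own changes were small: the log2 changes at 30 min against 0 min were 0.166 to 0.303 for the first 5 and 0.0354 to 0.165 for the other 5, beside 1.55 for Rgs1 and 0.70 for Rgs2. The 5 nearest to Rgs1 passed edgeR's test at 30 min against 0 min (adjusted p = 0.00248 to 0.031) and not at 60 min, while none of the 5 nearest to Rgs2 passed in either comparison (adjusted p = 0.116 to 0.707 at 30 min and 0.0994 to 0.337 at 60 min). These genes were picked for their likeness in the same 9 libraries, so the tests are not independent of the pick and nothing is read from them. By Spearman's rank correlation, or with totals as the only scaling, only 1 of the 5 stayed among the nearest 5 of each gene. Between Rgs1 and Rgs2 themselves r was 0.876 and Spearman's coefficient 0.783, over 9 libraries that share their times and depths, which placed Rgs2 at rank 37 for Rgs1 and Rgs1 at rank 74 for Rgs2.

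The partners of RGS proteins were counted from lists of the pathway, whose counts stand beside 8.18% of all tested genes called at 30 min (4.84% higher, 3.35% lower) and 25.0% at 60 min (13.3% higher, 11.7% lower), both against 0 min. The genes for G alpha i2 and G alpha i3, main targets of RGS proteins in macrophages, were abundant: Gnai2 averaged 242, 250 and 239 CPM and Gnai3 160, 163 and 161 CPM at 0, 30 and 60 min, and neither passed in any comparison. Of 10 tested G alpha genes, 1 was higher at 30 min than at 0 min and none lower (1 at an unadjusted p under 0.05), and at 60 min 2 were higher and 1 lower, both near the share over all genes, with median log2 changes of 0.0376 and -0.0213. Gna13 was higher at 30 min (132 against 112 CPM at 0 min, log2 change 0.24, edgeR adjusted p = 0.000201) and 1.5-fold higher at 60 min (168 against 112 CPM at 0 min, log2 change 0.59, edgeR adjusted p = 4.61e-09). Gna11, of the G alpha q class that Rgs2 acts on, was 1.49-fold lower at 60 min (9.02 against 13.5 CPM at 0 min, log2 change -0.58, edgeR adjusted p = 0.000185). Its close relative Gnaq was 1.1-fold higher at 60 min (121 against 109 CPM at 0 min, edgeR adjusted p = 0.00812), a call lost with totals as the only scaling (adjusted p = 0.127). Gna15, of the same class, was lower at 60 than at 30 min (11.9 against 14.1 CPM, log2 change -0.25, edgeR adjusted p = 0.029), and that call was lost without either of 30 min replicates 1 and 3 or 60 min replicates 1 and 2, with log2 changes of -0.24, -0.22, -0.21 and -0.24 and adjusted p-values up to 0.118, and with DESeq2 (log2 change -0.24, adjusted p = 0.0759). Among all tested genes 16.5% were called between 60 and 30 min, 8.87% higher.

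Of 9 tested G beta and gamma genes, 1 was higher at 30 min and 1 lower at 60 min, both against 0 min, where 8.18% and 25.0% of all tested genes were called, with median log2 changes of 0.0211 and 0.0537. These were Gnb2 (139 against 125 CPM at 0 min, edgeR adjusted p = 0.0353) and Gngt2 (17.7 against 20.6 CPM at 0 min, edgeR adjusted p = 0.0148). Gnb2 lost its call in 8 of 16 alternatives (adjusted p up to 0.163, log2 change 0.1217 to 0.1861 without 1 library), and Gngt2 without 0 min replicate 1 (log2 change -0.19, adjusted p = 0.0669).

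Proteins with an RGS domain outside the Rgs names include the receptor kinases (GRKs), which mark active receptors for arrestin, and axins and sorting nexins. Of 13 tested, none passed at 30 min against 0 min (1 at an unadjusted p under 0.05), and at 60 min against 0 min 1 was higher and 2 lower, about the 25.0% called over all tested genes, with median log2 changes of 0.0445 and -0.03. Akap10, an anchoring protein for protein kinase A, had 64 CPM at 60 min against 72.2 CPM at 0 min (log2 change -0.17, edgeR adjusted p = 0.0019). Snx13, a sorting nexin, had 28.9 CPM at 60 min against 32.6 CPM at 0 min (log2 change -0.17, edgeR adjusted p = 0.0182), a call lost without 0 min replicate 2 (-0.15, adjusted p = 0.0642), 0 min replicate 3 (-0.17, 0.051) or 60 min replicate 1 (-0.16, 0.0574). Grk3 had 38.8 CPM at 60 min against 35.3 CPM at 0 min (edgeR adjusted p = 0.0377) and lost its call in 12 of 16 alternatives, 7 of them leaving out 1 library (log2 change 0.08995 to 0.1536). Of 9 tested exchange factors, GDI factors and arrestins, 1 passed at 60 min against 0 min, Gpsm1, which holds G alpha i in its GDP-bound form (12.8 against 10.6 CPM at 0 min, edgeR adjusted p = 0.0134). It lost the call without 60 min replicate 3 (log2 change 0.24, adjusted p = 0.0503), and with totals as the only scaling none of the list was higher and 5 were lower. The median log2 change of that list was 0.000835 at 30 min and -0.0385 at 60 min, and none passed at 30 min (2 at an unadjusted p under 0.05).

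Effectors act downstream of G proteins. Of 22 tested, 1 was higher and none lower at 30 min against 0 min (1 lower at an unadjusted p under 0.05), and at 60 min 4 were higher and 5 lower, beside 8.18% and 25.0% of all tested genes called. The median log2 change was 0.0487 at 30 min and -0.0413 at 60 min. Pde4b, a phosphodiesterase that breaks down cAMP, had 13.97, 12.43 and 14.5 CPM at 0 min, 92.36, 44.72 and 49.74 CPM at 30 min, and 240.1, 216.6 and 238.3 CPM at 60 min. Its libraries did not overlap between times, and it was 4.57-fold higher at 30 min than at 0 min (log2 change 2.19 ± 0.221 SE, edgeR adjusted p = 1.04e-05) and 17-fold higher at 60 min than at 0 min (log2 change 4.09 ± 0.215 SE, edgeR adjusted p = 3.22e-09). Pik3r5, a regulatory subunit of the phosphoinositide 3-kinase that G beta-gamma activates, was 2.08-fold higher at 60 min (137 against 65.8 CPM at 0 min, edgeR adjusted p = 3.16e-09). Pde3b, another cAMP phosphodiesterase, was higher at 60 min (19.5 against 15.7 CPM at 0 min, edgeR adjusted p = 0.00181). Pde4a was lower at 60 min (35.9 against 41.6 CPM at 0 min, edgeR adjusted p = 0.0135), a call lost when 0 min replicate 1 or either of 60 min replicates 1 and 2 was left out (log2 change -0.19, -0.18 and -0.19, adjusted p = 0.0597, 0.056 and 0.0616).

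Receptors stand upstream of RGS proteins. Of 37 tested, 8 were higher and none lower at 30 min against 0 min (4 lower at an unadjusted p under 0.05), and 14 were higher and 9 lower at 60 min against 0 min. The matching shares over all tested genes were 4.84% and 3.35% at 30 min, and 13.3% and 11.7% at 60 min. The median log2 change was 0.072 at 30 min and 0.0619 at 60 min. Ccrl2, an atypical receptor that binds chemerin and is not known to signal through G proteins, had 0.843, 0.5971 and 0.4541 CPM at 0 min, 39.68, 26 and 27.47 CPM at 30 min, and 59.66, 52.64 and 58.58 CPM at 60 min (edgeR adjusted p = 5.14e-10 at 30 min and 2.75e-11 at 60 min, both against 0 min). Hcar2, a receptor for nicotinic acid and ketone bodies that couples to G alpha i, was 2.5-fold higher at 30 min (13 against 5.17 CPM at 0 min, edgeR adjusted p = 1.97e-05) and 3.04-fold higher at 60 min (15.7 against 5.17 CPM at 0 min, edgeR adjusted p = 8.42e-07). Also higher at 30 min were Ptger4, a prostaglandin E2 receptor (8.03 against 5.73 CPM at 0 min, edgeR adjusted p = 0.00662), and S1pr1, a receptor for sphingosine 1-phosphate (36.6 against 26.3 CPM at 0 min, edgeR adjusted p = 0.00153). At 60 min Ptafr, the receptor for platelet-activating factor, was 2.75-fold higher (56.8 against 20.7 CPM at 0 min, edgeR adjusted p = 2.32e-09), and Adora2b, an adenosine receptor that raises cAMP, was 2.48-fold higher (5.73 against 2.32 CPM at 0 min, edgeR adjusted p = 9.75e-05).

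**Figure D4:**
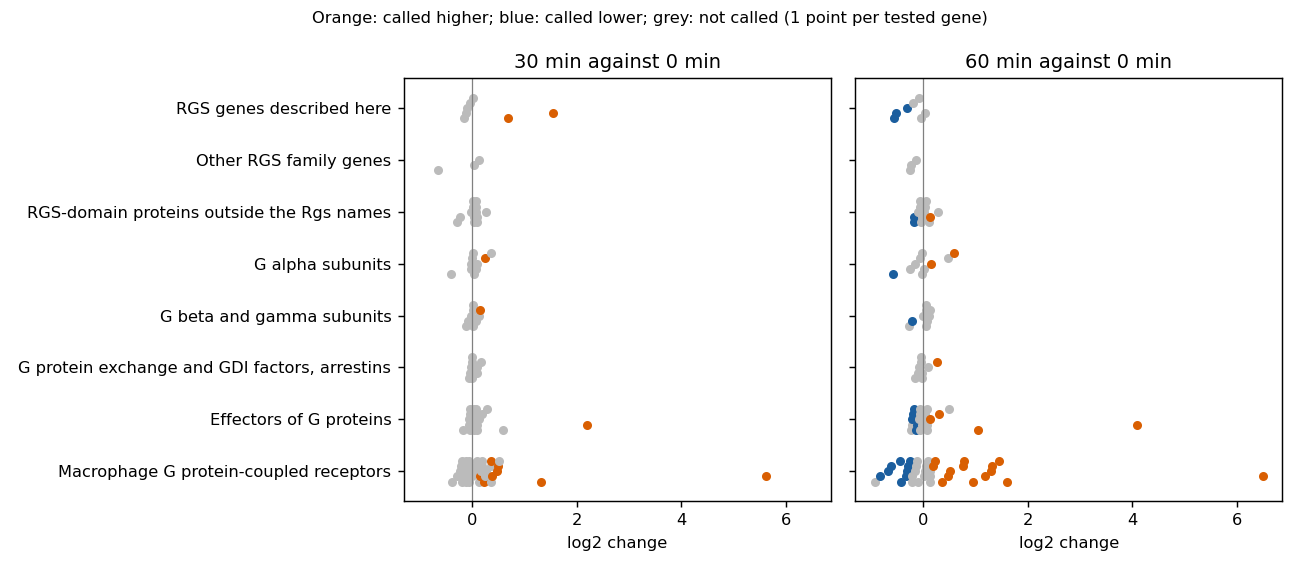
Log2 change of each tested gene of the RGS members and of the pathway lists (horizontal axes) at 30 and 60 min against 0 min, 1 point per gene, orange where edgeR called it higher, blue where lower and grey where not called (adjusted p under 0.05). At 30 min 2 RGS members are called right of 0 and none left of it, and at 60 min 3 are called left of 0.

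One 30 min library lay apart from the other 2 in these genes. On the first principal component of all tested genes (44.3% of the variance), 30 min replicate 1 stood at 9.3 and the other 30 min libraries at 0.251 and 1.57, between -34.8 to -31.7 at 0 min and 27.9 to 31.7 at 60 min. It was also the 30 min library with the lowest Rgs1 and Rgs2 and the highest Pde4b, Ccrl2 and Ptafr. Without 30 min replicate 1 the calls of Rgs1 and Rgs2 at 30 min held. Leaving out each of the 9 libraries in turn gave log2 changes from 1.502 to 1.633 for Rgs1 and from 0.6196 to 0.8284 for Rgs2, 30 min against 0 min, and every such fit called both.

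The authors' deposited table, made with DESeq2, lists 7 of the 8 genes. It stems from the same series, so it is no independent test of the calls above. By the authors' deposited table, 2 were higher and none lower at 30 min, and none higher and 3 lower at 60 min. Rgs1 has a log2 change of 1.55 at 30 min and 0.03 at 60 min in the authors' deposited table, with adjusted p-values of 2.94e-113 and 0.859. Rgs2 has 0.69 at 30 min and -0.57 at 60 min in the authors' deposited table, with adjusted p-values of 3.13e-05 and 3.13e-07.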

How the data were processed

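Expected counts per gene were deposited by the authors, estimated with RSEM 1.3.1 and not normalized. Per the submitters' processing notes, reads went through bcl2fastq 2.20 and cutadapt 1.18, with STAR 2.7.0f, Picard 2.18.26 and DESeq2 also named, on build mm10. Annotation and strand setting were not given in the sources used here. Rgs16 overlaps an antisense gene, Gm28513, and counts of overlapping genes are uncertain. Gm28513 itself had 1 count over all libraries. Between 14.9% and 15.5% of nonzero values were not whole; all were rounded. The authors also deposited log2 fold changes and p-values, per the file headers, with 0 min taken as the baseline because the values match it.

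The 55450 identifiers matched GENCODE M21. edgeR 4.0.16 in R 4.3.3 kept genes by filterByExpr (minimum count 10), scaled with TMM (factors 0.9705 to 1.034) and fitted all 9 libraries with time as the only term. The SE was worked back from the F statistic. The labels call the libraries of a time replicates, and p-values set a change against the spread between them. All come from the same line, so spread between lines is not covered. Library pairs differed by more than sampling noise. Same-numbered libraries did not deviate together. Alternatives used DESeq2 1.42.0, limma 3.58.1 (voom), other scalings, filters and samples. The fit was also run on simulated counts that had the same dispersion (spread beyond counting noise) for every gene. That run does not show how calls hold where the spread differs between genes.

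The members and the pathway lists were chosen with earlier results of these data known. Named genes are all 8 members, and per list and comparison up to 4 called genes with the largest log2 change and a mean of at least 1 CPM, and the 5 genes most like Rgs1 and Rgs2. Rgs16 has no counts, so no like genes were sought. Protein sequences were not used here. Some marker results are not reported here.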

Additional observations from a re-analysis of the deposited data

Results flagged for a closer look

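Rgs2 moved in opposite directions at the 2 times: every 30 min library lay above, and every 60 min library below, all 0 min libraries. The difference of its effects was -1.26 on the log2 scale and was not tested, since it led to the choice of the gene.

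For genes of the pathway lists the effect at 60 min differed from that at 30 min in the contrast of 60 against 30 min (edgeR, adjusted p under 0.05, 3 libraries each). All of them share the 0 min libraries, which drop out of the difference. It was positive on the log2 scale for Pde4b (1.90, adjusted p = 5.49e-06), Ptafr (1.20, 7.8e-08), Adora2b (1.06, 0.000859), Gpr84 (0.94, 2.51e-07), Pik3r5 (0.91, 7.31e-08), Ccrl2 (0.87, 0.000148), Gna13 (0.35, 3.42e-06), Pde3b (0.25, 0.0108) and Gnaq (0.14, 0.0139). It was negative for Gna11 (-0.57, adjusted p = 0.000385), Snx13 (-0.26, 0.00173), Gna15 (-0.25, 0.029), Adcy7 (-0.21, 0.00328), Akap10 (-0.19, 0.00184) and Arrb1 (-0.15, 0.00914). These are the largest changes of each list. Of the 37 receptors tested, 11 were higher and 7 lower at 60 than at 30 min, beside 8.87% and 7.65% of all tested genes, and the 4 named are all higher because they changed most. The call of Pde3b was lost without 30 min replicate 2 (log2 0.23, adjusted p = 0.0532), and that of Gnaq without 30 min replicate 3 (0.13, adjusted p = 0.0593) and with totals as the only scaling. Gna15 lost its call in 5 of 16 alternatives, among them DESeq2 (-0.24, adjusted p = 0.0759) and 4 that left out 1 library (-0.2889 to -0.2105 over all 9 of these). Gpr84, a receptor for medium-chain fatty acids that couples to G alpha i, had 80 CPM at 60 min against 41.6 CPM at 30 min. Adcy7, an adenylyl cyclase of leukocytes, had 101 CPM at 60 min against 117 CPM at 30 min. Arrb1, an arrestin that ends receptor signalling, had 117 CPM at 60 min against 129 CPM at 30 min.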

How the results depend on the processing

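The calls of Rgs1 and Rgs2 at 30 min and of Rgs2 and Rgs3 at 60 min, against 0 min, kept direction and call under all 16 alternatives. Leaving out a library in turn gave log2 changes of -0.05792 to 0.07859 for Rgs1 and -0.6472 to -0.4331 for Rgs2 at 60 min against 0 min, and at 30 min against 0 min -0.1198 to 0.05135 for Rgs10 and -0.05997 to 0.0601 for Rgs14.

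Signs that turned belonged to changes near 0: Rgs10 at 30 min (0.05135 without 30 min replicate 1), Rgs14 at 30 min (-0.01543 with totals only, -0.05997 without 0 min replicate 2, -0.03181 without 30 min replicate 3) and Rgs1 at 60 min (-0.03615 with totals only, -0.05792 without 60 min replicate 2), and the untested difference of Rgs10 between 60 and 30 min (0.03779 without 30 min replicate 2). With totals only, 5 members were lower at 60 min, and the share of calls that were higher was 45.9% (TMM 59.1%) at 30 min and 30.1% (TMM 53.1%) at 60 min, against 0 min, and 37.5% (TMM 53.7%) between 60 and 30 min. The cause was not tested. Totals only also gave 3048 genes lower at 60 min against 0 min and 1672 between 60 and 30 min. Genes lower at 30 min numbered 757 with no filter, 290 without 0 min replicate 1, 310 without 30 min replicate 2 and 305 without 30 min replicate 3, beside 477.

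List counts that moved at 30 min were G beta and gamma higher (0 with totals only, with the replicate block and with only the 2 times; 0 to 1 without a library) and effectors with no filter (2 higher, 1 lower; 1 to 2 and 0 to 1 without a library). At 60 min against 0 min they were other RGS genes higher (1 with no filter, Rgs9, with 4 counts at 0 min and 25 at 60 min), RGS-domain proteins (0 higher with DESeq2, totals only, no filter, the block and only the 2 times; 0 to 1 higher and 1 to 2 lower without a library), G alpha with totals only (1 higher, 3 lower), exchange factors and arrestins with totals only (0 higher, 5 lower; 0 to 1 higher without a library), effectors lower (1 to 5 without a library) and G beta and gamma (0 to 1 either way without a library). Between 60 and 30 min they were RGS-domain proteins lower (4 with totals only), G alpha (1 higher with totals only, 1 lower with DESeq2; 1 to 2 either way without a library) and effectors lower (4 with totals only, 2 with no filter; 1 to 2 without a library). Of the 5 genes most like Rgs1, and likewise Rgs2, 1 stayed with Spearman's rank correlation and 1 with totals only.

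Replicate numbers did not pair the libraries: same-numbered libraries correlated at -0.0636 to 0.00611 in their deviations, and 0 of 9 correlated best with their own number. The replicate block changed no call of a member, and gave 588 genes higher and 379 lower at 30 min, and 1720 higher and 1514 lower at 60 min, against 0 min. Of the tested members Rgs18 had the fewest counts, 2186 over the 9 libraries.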
